A study of Sus scrofa with 96 samples.

Results

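The genes of creatine synthesis (GATM, GAMT), transport (SLC6A8) and use (the creatine kinases CKM, CKB and CKMT2) were taken by symbol, as 6 of the 25880 gene identifiers counted in pig (Sus scrofa) tissues. The study fed pigs a semi-purified diet without xylose (control) or the same diet holding 8% D-xylose, and sampled liver, kidney cortex, the mucosa of the jejunum and the longissimus dorsi, a skeletal muscle of the back. The series states 24 animals, and there were 12 libraries for every tissue on either diet. The sources used here state neither breed nor age, and the labels do not tie libraries to animals, so libraries of different tissues could not be matched by animal. RNA was counted by QuantSeq, which reads the 3' end of each polyadenylated transcript, so counts of different genes were compared without a length correction. Such a method misses a gene whose 3' end lies outside its annotated model. Comparisons between genes, including shares, are therefore of counts and may differ from those of transcripts. Levels are given as CPM, a gene's count scaled to a library total of 1000000.

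Creatine is made and used in different organs. GATM (AGAT) joins arginine and glycine to form guanidinoacetate, GAMT methylates guanidinoacetate to creatine, SLC6A8 carries creatine into cells, and the creatine kinases exchange phosphate between ATP and creatine. In mammals the kidney is known for the reaction of GATM and the liver for that of GAMT, while skeletal muscle holds most of the body's creatine and takes it up from blood. CKM is the cytosolic kinase of muscle, CKB the cytosolic kinase of brain and many epithelia, and CKMT2 the mitochondrial kinase of striated muscle.

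Each deposited file was given to the sample whose title stands in its name, which is another sample than that of the record for 90 of the 96 files. After libraries under 1000000 counts were dropped, 90 remained, with 19 from jejunum, 24 from kidney, 23 from liver and 24 from muscle. Their totals ran from 1044588 to 6942566 counts. All 90 had their own tissue's marker genes highest under this assignment, against 48 of the 90 under the record, so the tissue labels were read through the titles. Their highest markers were ALB at 120800 CPM in liver, ACTA1 at 195300 CPM in muscle, ANPEP at 5749 CPM in jejunum and, for the proximal tubule of the kidney, LRP2 at 3450 CPM. Libraries were made from bulk tissue, in which fewer cells of a type and less RNA per cell cannot be told apart.

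GATM, which makes the precursor of creatine, was high in kidney and liver and low in jejunum and muscle. Its lowest, median and highest levels were 407, 1154 and 3454 CPM in kidney and 296, 1006 and 3820 CPM in liver. They were 19.5, 36.7 and 62.1 CPM in jejunum and 9.94, 15.6 and 134 CPM in muscle. Every kidney and liver library lay above every jejunum and muscle library, while kidney and liver overlapped along most of their ranges. The mean was 1263 ± 685 CPM (SD, n = 24) in kidney, 62.0-fold the 20.4 ± 24.5 CPM (SD, n = 24) in muscle. It was 1151 ± 812 CPM (SD, n = 23) in liver, 29.7-fold the 38.8 ± 12.4 CPM (SD, n = 19) in jejunum.

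In the fit over all 90 libraries with TMM scaling, the log2 fold change of GATM was 4.57 ± 0.23 (SE) for kidney over muscle (edgeR adjusted p = 4.79e-33). It was 5.32 ± 0.24 for liver over muscle (edgeR adjusted p = 9.81e-37) and -4.76 ± 0.26 for jejunum over kidney (edgeR adjusted p = 1.46e-30). For jejunum over liver it was -5.50 ± 0.27 (edgeR adjusted p = 7.61e-34). Which of the 2 high tissues had more GATM depended on the scaling, with a log2 fold change of kidney over liver of -0.75 ± 0.20 with TMM (edgeR adjusted p = 8.08e-04) and 0.13 with library totals alone (edgeR adjusted p = 0.542). Library totals alone moved the median of all genes tested from 0.12 to 0.99 in that pair, and relative to this median GATM stood at -0.86 by both scalings. The order of the low tissues also turned with scaling, since jejunum over muscle was -0.18 ± 0.22 with TMM (edgeR adjusted p = 0.447) and 0.99 with library totals alone (edgeR adjusted p = 5.15e-05), while relative to the median of all genes it was -0.32 and -0.30.

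A few libraries set the upper ends of these ranges. In liver, xylose replicate 7 held 3820 CPM and control replicate 8 held 3244 CPM, against 1471 CPM in the next highest library. In kidney, control replicate 6 held 3454 CPM and control replicate 7 held 2206 CPM. In muscle, xylose replicate 7 held 134 CPM, and the next highest library held 24.3 CPM. That muscle library also had the highest summed level of 12 hepatocyte markers in muscle, 6582 CPM against a muscle median of 1010 CPM, and the lowest summed level of 8 skeletal muscle markers, 136219 CPM against a median of 265000 CPM. The part of these other transcripts in its GATM level was not tested.

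GAMT, the methyltransferase of the second step, had 0 counts in all 96 files, which together hold 316895779 counts. A count of 0 allows up to 0.0329 CPM over the pooled liver libraries and 0.0349 CPM over the pooled kidney libraries, for counting error only. No tissue or diet comparison of GAMT could therefore be made, and 5 of the 6 genes were tested. Among genes known as abundant in liver, SERPINA1, a major plasma protein, was also near 0 there, at 1.20 ± 1.10 CPM (SD, n = 23). So was MAT1A, the liver enzyme that makes S-adenosylmethionine, at 2.43 ± 1.60 CPM (SD, n = 23). Both were named after their values were seen. The other 11 of the 12 hepatocyte markers were not near 0, with liver means from 1211 CPM (APOA2) to 120800 CPM (ALB). The cause of the missing counts was not tested.

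SLC6A8, the creatine transporter, was highest in jejunum, followed by kidney, muscle and liver. Its lowest, median and highest levels were 56.5, 109 and 198 CPM in jejunum, 25.9, 37.2 and 60.4 CPM in kidney, 5.40, 8.68 and 13.4 CPM in muscle and 2.51, 6.48 and 10.4 CPM in liver. Jejunum and kidney libraries all lay above those of muscle and liver, and the neighbours in the order overlapped within each of these pairs. Means were 116 ± 40.5 CPM (SD, n = 19) in jejunum and 38.3 ± 9.81 CPM (SD, n = 24) in kidney, a 3.04-fold difference. They were 8.65 ± 2.12 CPM (SD, n = 24) in muscle and 6.11 ± 1.97 CPM (SD, n = 23) in liver.

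All 6 tissue pairs passed the threshold of an adjusted p of 0.05 for SLC6A8. The log2 fold change was 1.88 ± 0.13 (SE) for jejunum over kidney (edgeR adjusted p = 8.41e-25) and 0.70 ± 0.12 for kidney over muscle (edgeR adjusted p = 4.61e-07). It was -1.06 ± 0.13 for liver over muscle (edgeR adjusted p = 1.77e-11). Muscle, known as the main store of creatine, had transporter mRNA at 7.43% of the mean CPM of jejunum mucosa, and jejunum over muscle was 2.58 ± 0.13 with TMM (edgeR adjusted p = 5.10e-33) and 3.75 with library totals alone. With TMM factors the means were 88.7 CPM in jejunum, 24.1 CPM in kidney and 14.8 CPM in muscle, which keeps their order. The folds over muscle were smaller with TMM than with library totals alone, where the log2 fold change of kidney over muscle was 2.135. That of jejunum over kidney was larger with TMM, at 1.88 against 1.61 with library totals alone.

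**Figure D1:**
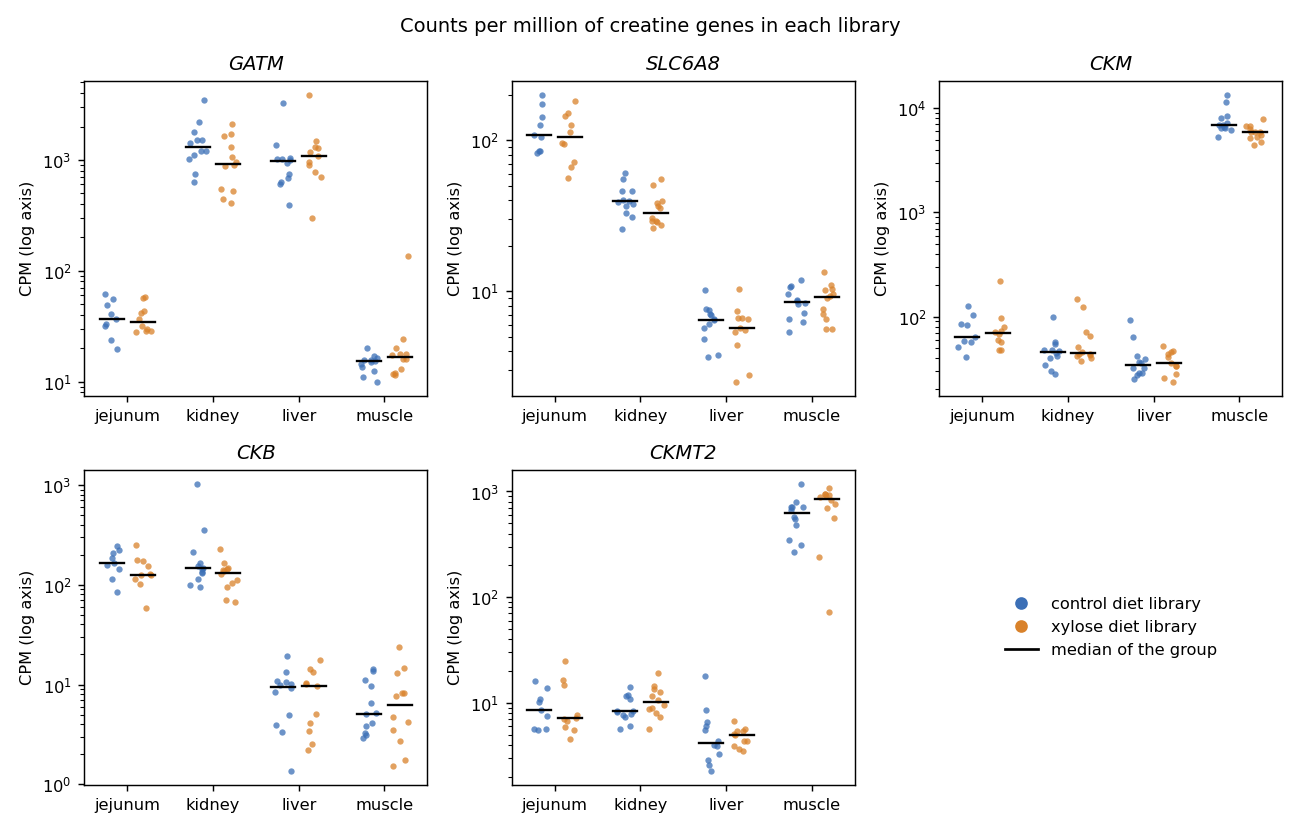
CPM (log axis) of GATM, SLC6A8, CKM, CKB and CKMT2 in each of the 90 libraries by tissue, with control libraries in blue, xylose libraries in orange and bars at the group medians. GATM separates kidney and liver from jejunum and muscle, SLC6A8 and CKB separate jejunum and kidney from liver and muscle, and CKM and CKMT2 separate muscle from the rest; GAMT has no counts and is not drawn.

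CKM, the cytosolic kinase of muscle, reached the highest CPM of the creatine genes measured in any tissue. Its lowest, median and highest levels in muscle were 4468, 6492 and 13314 CPM, and every muscle library lay far above every other library. In jejunum they were 40.6, 67.9 and 221 CPM, in kidney 27.9, 45.1 and 146 CPM, and in liver 23.6, 35.5 and 92.7 CPM. The muscle mean of 6843 ± 2003 CPM (SD, n = 24) was 87.3-fold that of jejunum, 124.5-fold that of kidney and 176-fold that of liver. The log2 fold change was -8.41 ± 0.20 (SE) for kidney over muscle (edgeR adjusted p = 4.03e-59), and CKM passed in all 6 tissue pairs.

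Differences of CKM among the 3 other tissues were smaller than those from muscle. Jejunum was above kidney by a log2 fold change of 0.80 ± 0.15 (edgeR adjusted p = 2.90e-06). Jejunum over liver was 0.39 ± 0.16 (edgeR adjusted p = 0.0182) and 1.01 with library totals alone (edgeR adjusted p = 1.17e-08), or 0.27 and 0.28 relative to the median of all genes. With TMM this call was lost within lane 7 (0.42, edgeR adjusted p = 0.151), within lane 8 (0.28, edgeR adjusted p = 0.174) and without 3 libraries that stand apart (0.27, edgeR adjusted p = 0.0941). Kidney over liver was -0.40 ± 0.15 with TMM (edgeR adjusted p = 0.0124), 0.48 with library totals alone (edgeR adjusted p = 0.00201) and -0.52 and -0.50 relative to the median of all genes by the 2 scalings, and the call was lost within lane 7 (-0.42, edgeR adjusted p = 0.131).

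CKMT2, which sits between the mitochondrial membranes and passes phosphate from newly made ATP to creatine, followed the same division at a lower level. Its lowest, median and highest levels in muscle were 72.5, 708 and 1175 CPM, and its mean of 674 ± 280 CPM (SD, n = 24) was 68.0-fold that of kidney. Means elsewhere were 9.71 ± 5.29 CPM (SD, n = 19) in jejunum, 9.92 ± 3.24 CPM (SD, n = 24) in kidney and 5.25 ± 3.15 CPM (SD, n = 23) in liver. Muscle did not overlap with any other tissue, and the lowest muscle library was again xylose replicate 7. The log2 fold change of kidney over muscle was -7.50 ± 0.22 (SE; edgeR adjusted p = 3.04e-51). CKMT2 did not pass among jejunum, kidney and liver with TMM, while with library totals alone jejunum over liver was 0.89 (edgeR adjusted p = 1.55e-04) and kidney over liver 0.94 (edgeR adjusted p = 1.04e-05). Relative to the median of all genes these 2 differences were 0.15 and -0.048 with library totals alone, and 0.14 and -0.060 with TMM.

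CKB, the cytosolic kinase of non-muscle cells, was high in jejunum and kidney and low in muscle and liver. It had the largest counts of the 3 kinases in jejunum and kidney. Its lowest, median and highest levels were 66.9, 139 and 1021 CPM in kidney, 58.4, 155 and 250 CPM in jejunum, 1.53, 5.12 and 23.6 CPM in muscle and 1.37, 9.62 and 19.4 CPM in liver. All jejunum and kidney libraries lay above all liver and muscle libraries. The mean of 154.5 ± 52.7 CPM (SD, n = 19) in jejunum was 21.0-fold that of muscle, and the mean of 179 ± 188 CPM (SD, n = 24) in kidney was 20.8-fold that of liver. The log2 fold change was 3.56 ± 0.27 (SE) for jejunum over liver (edgeR adjusted p = 2.42e-22) and 3.13 ± 0.25 for kidney over muscle (edgeR adjusted p = 1.32e-20). With TMM the folds were smaller than those of the mean CPM, at 3.24 ± 0.26 on the log2 scale for jejunum over muscle and 3.45 ± 0.26 for kidney over liver, against 4.39 and 4.34 with library totals alone.

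The 2 tissues with much CKB were not separated by the test, and neither were the 2 with little. Jejunum over kidney was 0.11 ± 0.24 with TMM (edgeR adjusted p = 0.69) and -0.18 with library totals alone (edgeR adjusted p = 0.507). Liver over muscle was -0.32 ± 0.25 with TMM (edgeR adjusted p = 0.239) and 0.23 with library totals alone (edgeR adjusted p = 0.409), while relative to the median of all genes it was -0.36 and -0.34. The wide spread in kidney came from control replicate 7 at 1021 CPM and control replicate 6 at 350 CPM, against 226 CPM in the next highest library. These libraries also had the highest GATM of the kidney, and control replicate 7 had a summed level of 9 distal nephron markers of 14277 CPM against a kidney median of 4009 CPM. Over the 24 kidney libraries CKB and the distal nephron list had no relation that passed, with r = 0.331 and rho = 0.214 (permutation p = 0.115 and 0.311, adjusted over 28 relations 0.346 and 0.56).

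The counts of creatine genes past the threshold were near the shares over all genes. Of the 5 tested genes, 3 passed for jejunum against kidney, where 74.5% of 12266 genes did. It was 4 for jejunum against liver (76.4%), 4 for jejunum against muscle (81.3%), 4 for kidney against liver (66.2%), 5 for kidney against muscle (74.6%) and 4 for liver against muscle (75.1%).

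As a share of the summed counts of CKM, CKB and CKMT2, CKB made up 63.7% ± 13.9 (SD, n = 19) in jejunum and 69.1% ± 13.1 (SD, n = 24) in kidney. In muscle CKM made up 90.4% ± 4.67 (SD, n = 24), CKMT2 9.46% ± 4.63 and CKB 0.107% ± 0.0857. In liver CKM made up 73.7% ± 7.33 (SD, n = 23) and CKB 16.4% ± 8.46, but of a sum of only 52.7 ± 19.5 CPM. CKM in liver stood at 0.568% of its muscle mean, where skeletal muscle markers stood at a median of 0.614% of theirs. The part of skeletal muscle transcripts in the CKM shares of liver, jejunum and kidney was not tested. The summed level was 243 ± 57.7 CPM in jejunum, 244 ± 190 CPM in kidney and 7524 ± 1916 CPM in muscle. CKMT1, the mitochondrial kinase of non-muscle cells, was not analysed here, so the mitochondrial share of jejunum and kidney is that of CKMT2 alone.

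**Figure D2:**
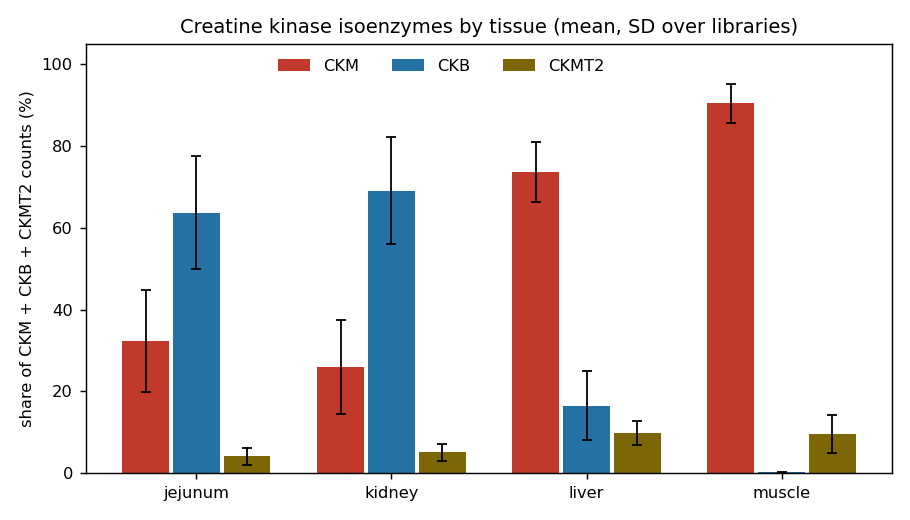
Mean share (%) of CKM, CKB and CKMT2 in the summed counts of these kinases by tissue, with error bars of 1 SD over libraries. CKB is the larger share in jejunum (63.7%) and kidney (69.1%), and CKM in liver (73.7%) and muscle (90.4%). The summed level in liver was only 52.7 CPM, and the part of skeletal muscle transcripts in the CKM shares outside muscle was not tested.

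Outside muscle, the level of CKM moved with transcripts that mark skeletal muscle. For each 100 counts of the 8 measured skeletal muscle markers, which include ACTA1, TNNT3 and TNNC2, CKM had 2.68 ± 0.82 counts (SD, n = 24) in muscle, 2.35 ± 0.29 (SD, n = 24) in kidney, 2.26 ± 0.25 (SD, n = 19) in jejunum and 2.17 ± 0.34 (SD, n = 23) in liver. This ratio was chosen after the data were seen. The marker sum itself ran from 136219 to 315300 CPM in muscle, and from 1786 to 9589 CPM in jejunum, 1165 to 6004 CPM in kidney and 1226 to 3842 CPM in liver. The 4 tissues thus had nearly the same mean ratio while the marker sum differed about as much as CKM. Single muscle libraries ran from 1.87 to 5.52 counts of CKM per 100 marker counts.

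CKM in jejunum, kidney and liver stood at 1.15%, 0.803% and 0.568% of its muscle mean, and the skeletal muscle markers stood at medians of 1.23%, 0.821% and 0.614% of theirs. CKMT2 stood at 1.44%, 1.47% and 0.779%, and per 100 marker counts it had 0.459 ± 0.127 counts in kidney, 0.287 ± 0.0856 in liver, 0.283 ± 0.0968 in jejunum and 0.257 ± 0.105 in muscle. The libraries highest in CKM were those highest in the markers, namely jejunum xylose replicate 3 at 221 CPM with a marker sum of 9589 CPM, and kidney xylose replicates 5 and 12 at 146 and 123 CPM with sums of 6004 and 5572 CPM. The part of muscle transcripts from outside these organs in their CKM levels was not tested.

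**Figure D3:**
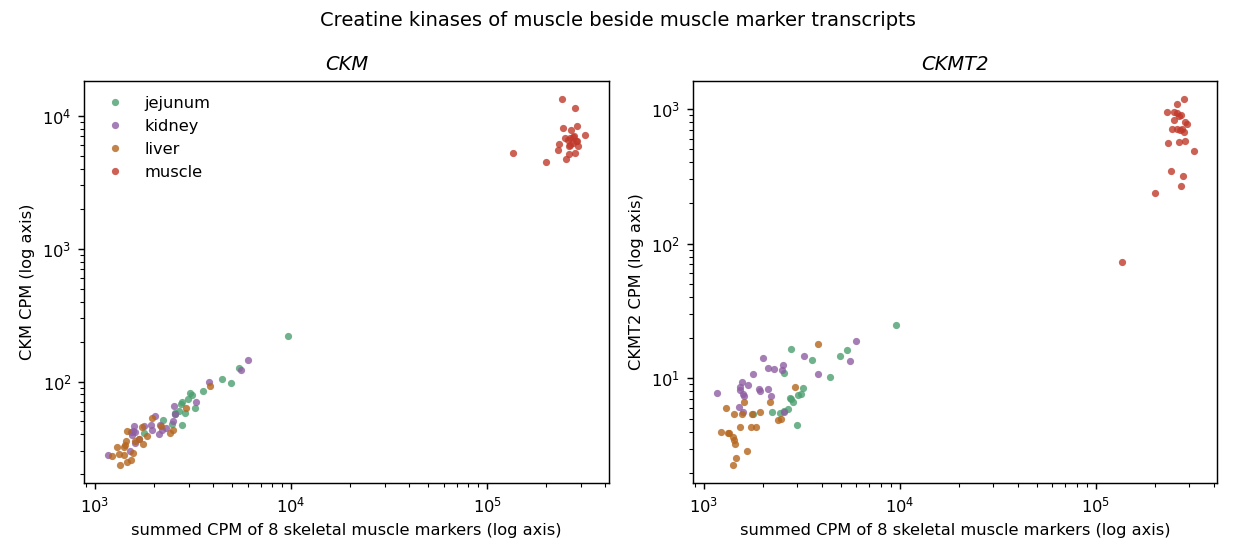
CPM of CKM (left) and CKMT2 (right) against the summed CPM of 8 skeletal muscle markers in each of the 90 libraries, both axes logarithmic, coloured by tissue. CKM lies near a single line from the jejunum, kidney and liver libraries up to muscle, with tissue means of 2.17 to 2.68 counts per 100 marker counts. Single libraries ran from 1.68 in liver to 5.52 in muscle. By tissue means, CKMT2 of kidney lies above that of liver at the same marker sum.

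In the tissues where they were low, GATM, CKB and SLC6A8 stood at a larger percent of their high level than the median marker, although single markers stood higher, such as APOC3 in jejunum at 20.1% of its liver level, SLC5A12 in jejunum at 59.1% of its kidney level and SLC13A3 in liver at 9.17% of its kidney level; these 3 were named after their values were seen. Hepatocyte markers stood at a median of 0.688% of their liver level in muscle and proximal tubule markers at 0.541% of their kidney level. GATM in muscle stood at 1.77% of its liver mean and 1.61% of its kidney mean. As GATM was high in both organs, each percent sets it beside the markers of 1 organ only. Its muscle mean of 20.4 CPM includes xylose replicate 7 at 134 CPM, and its muscle median was 15.6 CPM. The part of liver and kidney transcripts together in these levels was not tested. In jejunum GATM stood at 3.37% of its liver mean, against a median of 1.18% for hepatocyte markers. It stood there at 3.07% of its kidney mean, against a median of 1.44% for proximal tubule markers, again with 1 organ at a time. CKB in muscle stood at 4.11% of its kidney mean and in liver at 4.81%. SLC6A8 in muscle stood at 7.43% of its jejunum mean and 22.6% of its kidney mean, and in liver at 5.25% and 16.0%. Enterocyte markers stood at medians of 0.300% in muscle and 0.306% in liver, and proximal tubule markers at 0.541% and 0.527%.

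Within tissues, 28 relations among these genes and marker lists were computed, and 1 passed after adjustment. In jejunum GATM and CKM were correlated over 19 libraries, with r = 0.757 (permutation p = 7e-05, adjusted 0.00392) and rho = 0.774 (permutation p = 0.00025, adjusted 0.007). It was r = 0.811 within lane 7 (8 libraries), 0.807 within lane 8 (11 libraries) and 0.698 without the 2 libraries farthest from the median of GATM. In 4 further relations chosen after the data were seen, CKM followed the skeletal muscle list with r = 0.947 and rho = 0.833 (permutation p = 1e-05, the smallest these permutations can give, and 2e-05; both adjusted 8e-05), or r = 0.879 without the 2 farthest libraries. GATM followed the hepatocyte list with r = 0.688 and rho = 0.781 (permutation p = 0.00089 and 0.00011, adjusted 0.00123 and 0.00022), or r = 0.648 without the 2 farthest. GATM followed the skeletal muscle list as well, with r = 0.742 and rho = 0.647 (permutation p = 6e-05 and 0.00323, adjusted 0.00016 and 0.00369), or r = 0.71 without the 2 farthest. GATM and CKM were also high in the shallowest jejunum libraries. Xylose replicate 3, control replicate 7 and control replicate 5 had the lowest totals (1044588, 1111360 and 1175555 counts). They held 56.5, 62.1 and 55.3 CPM of GATM and 221, 127 and 105 CPM of CKM. The deepest, control replicate 4 (4925124 counts), held 19.5 and 40.6 CPM, but xylose replicate 12 (1629430 counts) held only 28.8 and 47.3 CPM. The part of hepatocyte and skeletal muscle transcripts, or of library depth, in the relation of GATM to CKM was not tested.

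In muscle the relation between CKM and CKMT2 did not pass over all libraries and turned on 1 of them. CKM against CKMT2 had r = -0.328 and rho = -0.49 (permutation p = 0.119 and 0.016, adjusted 0.346 and 0.157) over 24 libraries. It was r = -0.908 within the 12 libraries of lane 7 and -0.0386 within the 12 of lane 8, which holds xylose replicate 7. Without that library, a choice made after the data were seen, it was r = -0.643 and rho = -0.557 over 23 libraries (permutation p = 0.00092 and 0.00678, adjusted over the 4 added relations 0.00123 and 0.00678), with r = -0.37 within lane 8 and -0.428 without the 2 libraries farthest from the median of CKM. Control replicate 6 was highest in CKM at 13314 CPM with 347 CPM of CKMT2, and control replicate 12 was highest in CKMT2 at 1175 CPM with 5276 CPM of CKM. No relation of either kinase to the slow-twitch fibre list passed, with r = -0.0442 and rho = 0.0139 for CKM (permutation p = 0.84 and 0.95, adjusted 0.931 and 0.95) and r = -0.211 and rho = -0.285 for CKMT2 (permutation p = 0.33 and 0.177, adjusted 0.56 and 0.396). For the fast-twitch fibre list CKM had r = 0.497 and rho = 0.451 (permutation p = 0.0132 and 0.0273, adjusted 0.157 and 0.182), with r = 0.851 within lane 7 and -0.107 within lane 8. CKMT2 had r = -0.346 and rho = -0.347 with that list (permutation p = 0.0954 and 0.0972, both adjusted 0.346), with r = -0.737 within lane 7 and -0.146 within lane 8.

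The xylose diet changed none of the 5 tested genes in any tissue at an adjusted p of 0.05. Among all genes the edgeR test called 0% in each tissue, although 404 genes of jejunum, 720 of kidney, 618 of liver and 620 of muscle had an unadjusted p under 0.05. DESeq2 called 0 genes in jejunum, kidney and liver and 2 in muscle, TMEM109 and UBR3, which were named after their values were seen. Levels by diet overlapped for all 5 genes in all 4 tissues.

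Of the single values, CKM in muscle had the smallest p. Its lowest, median and highest levels were 5276, 6954 and 13314 CPM in 12 control libraries and 4468, 5935 and 7888 CPM in 12 xylose libraries. The log2 fold change of xylose over control was -0.43 ± 0.14 (SE), with a 95% interval from -0.73 to -0.14, an unadjusted p of 0.00588 and an edgeR adjusted p of 0.614. The 2 highest libraries, control replicates 6 and 1 at 13314 and 11546 CPM, were both control. Hepatocyte markers moved with diet in the same libraries, since all 11 tested had estimates above 0 (0.59 to 1.31) with an unadjusted p under 0.05 and none passed after adjustment. Their sum ran from 738 to 1225 CPM in control and from 823 to 6582 CPM in xylose libraries. Without xylose replicate 7 the 11 estimates ran from 0.19 to 0.42, 4 of them with an unadjusted p under 0.05, and CKM was at -0.44 (edgeR adjusted p = 0.226). Of 8 skeletal muscle markers 1, TNNI2, had an unadjusted p under 0.05, at -0.41, and their sum ran from 233533 to 315265 CPM in control and from 136219 to 291178 CPM in xylose libraries. The part of these transcripts in the CKM value was not tested. CKMT2 in muscle was at a median of 626 CPM on the control diet and 854 CPM on xylose, with a log2 fold change of 0.21 ± 0.27 (edgeR adjusted p = 0.89).

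In kidney, CKB had a log2 fold change of -0.76 ± 0.33, with a 95% interval from -1.45 to -0.080 and an edgeR adjusted p of 0.701. Its medians of 146 CPM on the control diet and 133 CPM on xylose lay close together, and without control replicate 7 the log2 fold change was -0.24 (edgeR adjusted p = 0.997). GATM in kidney had medians of 1314 CPM on the control diet and 925.5 CPM on xylose, and a log2 fold change of -0.49 ± 0.28 (edgeR adjusted p = 0.743). In muscle GATM had a log2 fold change of 0.67 ± 0.33 (edgeR adjusted p = 0.685), which was 0.09 without xylose replicate 7 (edgeR adjusted p = 0.833). CKM in kidney had 0.45 ± 0.23 (edgeR adjusted p = 0.718), and its 2 highest libraries were the xylose libraries with the most muscle markers.

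For SLC6A8 the 95% intervals over the 4 tissues lay between -0.57 and 0.40 on the log2 scale, with estimates of -0.17 in liver, -0.15 in kidney, -0.06 in jejunum and -0.0023 in muscle. The widest interval among the 20 was that of CKB in muscle, from -0.68 to 0.84 around 0.08. A test of whether the diet effect differed between tissues called 1 of 12266 genes (0.00815%), the gap junction gene GJB1, which was named after its values were seen, and none of the 5 creatine genes. The smallest unadjusted p of these was 0.0213 for CKM (edgeR adjusted p = 0.937), followed by 0.0365 for GATM (edgeR adjusted p = 0.97).

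**Figure D4:**
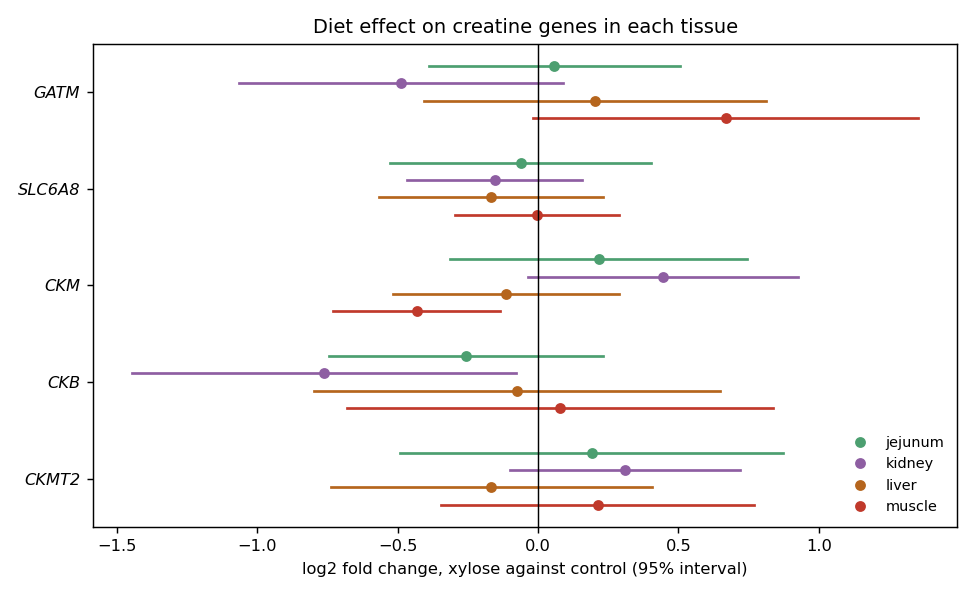
Log2 fold change of xylose over control for GATM, SLC6A8, CKM, CKB and CKMT2 in each tissue, with points at the edgeR estimate and lines for its 95% interval. The intervals of CKM in muscle (-0.73 to -0.14) and CKB in kidney (-1.45 to -0.080) leave out 0, and no adjusted p falls under 0.05.

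Genes that supply the substrates of creatine synthesis had their highest mRNA levels in different organs. Among 9 listed genes of arginine supply, 7 were tested between tissues. ASS1, which with ASL forms arginine from citrulline, was highest in kidney, at 5430 ± 1273 CPM (SD, n = 24) against 1562 ± 306.5 CPM (SD, n = 23) in liver. OAT, which links ornithine to proline and glutamate, was highest in jejunum at 1989 ± 1673 CPM (SD, n = 19), as was SLC7A9, a brush border carrier of basic amino acids and cystine, at 285 ± 149 CPM. ARG1, which breaks arginine down in the urea cycle, was at 267 ± 157 CPM in liver and 2.15 ± 1.05 CPM in kidney. Between kidney and liver 4 of the 7 were higher in kidney and 2 in liver, where 66.2% of all genes tested passed in either direction. The log2 fold change of kidney over liver was 0.90 for ASS1 (edgeR adjusted p = 4.64e-05) and -7.83 for ARG1 (edgeR adjusted p = 1.27e-47). The median log2 fold change of the 7 was 0.90 against 0.12 over all genes (with library totals alone, 5 and 1, and 1.80 against 0.99).

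Of 8 listed genes of glycine supply 4 were tested between tissues, and levels were low except for DLD, a shared subunit of the glycine cleavage system and of keto acid dehydrogenases, at 139.5 ± 46.5 CPM in kidney. GLDC, which cleaves glycine, was at 34.7 ± 18.1 CPM in liver. SHMT2 was at 4.16 ± 6.54 CPM and AGXT at 3.0 ± 1.56 CPM in kidney. Between kidney and liver 2 of the 4 were higher in kidney and 1 in liver, where 66.2% of all genes tested passed in either direction. Their median log2 fold change was -0.036 against 0.12 over all genes, which turned to 0.86 against 0.99 with library totals alone.

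The methyl group that GAMT needs comes from S-adenosylmethionine. Most tested genes of the methyl group list were higher in liver than in kidney or muscle. MAT2A and MAT2B went the other way between kidney and liver, with log2 fold changes of kidney over liver of 0.66 and 0.72 with TMM. Of 11 listed genes of methyl group supply 10 were tested, of which 3 were higher in kidney and 7 in liver. Of all genes tested in that pair, 66.2% passed in either direction. The median log2 fold change of kidney over liver was -2.05 against 0.12 over all genes (with library totals alone, 4 and 6, and -1.18 against 0.99). For liver over muscle 9 of the 10 passed as higher in liver, with a median of 3.71 against 0.037 over all genes, of which 75.1% passed in either direction (with library totals alone, 10, and 3.96 against 0.56). BHMT, which remakes methionine from betaine, was at 1102 ± 347 CPM (SD, n = 23) in liver and 339 ± 294 CPM (SD, n = 24) in kidney. MAT2A and MAT2B, the subunits of the S-adenosylmethionine synthetase found outside the adult liver, were highest in kidney at 417 ± 79.4 and 131 ± 55.4 CPM. AHCY, which clears S-adenosylhomocysteine, was at 105.5 ± 24.6 CPM in kidney and 84.2 ± 17.1 CPM in liver. Its log2 fold change of kidney over liver was -0.57 with TMM (edgeR adjusted p = 1.6e-07) and 0.32 with library totals alone (edgeR adjusted p = 0.00184).

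Among 7 listed transporters and kinases near the creatine genes, 3 were tested. SLC16A12, a carrier of creatine, was at 442 ± 210 CPM in kidney and 130 ± 40.4 CPM in liver, and at 5.62 ± 3.31 CPM in jejunum and 3.81 ± 1.55 CPM in muscle. High SLC16A12 thus stood in the 2 tissues with high GATM, and its log2 fold change was 0.86 for kidney over liver (edgeR adjusted p = 1.89e-05), the other direction from GATM with TMM. SLC6A6, the taurine transporter, was highest in jejunum at 36.4 ± 14.8 CPM. SLC6A12, a betaine and GABA transporter, was at 29.1 ± 11.0 CPM in liver. SLC6A13 was at 0.0142 ± 0.0696 CPM in muscle and had 0 counts elsewhere.

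Partners of the kinases in energy transfer differed in direction. Of 10 listed genes 7 were tested, of which 4 were higher in muscle than in kidney and 3 were lower. Of all genes tested in that pair, 74.6% passed in either direction. The median log2 fold change of kidney over muscle was -2.07 against 0.16 over all genes (with library totals alone the same counts, and -0.64 against 1.57). SLC25A4, the ADP/ATP carrier of heart and muscle, was at 1378 ± 366 CPM in muscle and 223 ± 61.5 CPM in kidney. AK1, the cytosolic adenylate kinase, was at 1176 ± 288 CPM in muscle and 43.5 ± 14.1 CPM in kidney. VDAC1, the outer membrane channel to which mitochondrial kinase binds, was at 638 ± 253 CPM in muscle and 325 ± 152 CPM in kidney. SLC25A6, another ADP/ATP carrier, was highest in kidney at 3088 ± 1122 CPM against 440 ± 125.5 CPM in muscle. The lower level in muscle held also for the carrier SLC25A5, at 7.07 ± 2.58 CPM against 360 ± 208 CPM in kidney, and for the mitochondrial adenylate kinase AK3, at 32.3 ± 13.1 CPM against 178 ± 58.4 CPM. No gene of the 5 lists passed for diet in any tissue.

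**Figure D5:**
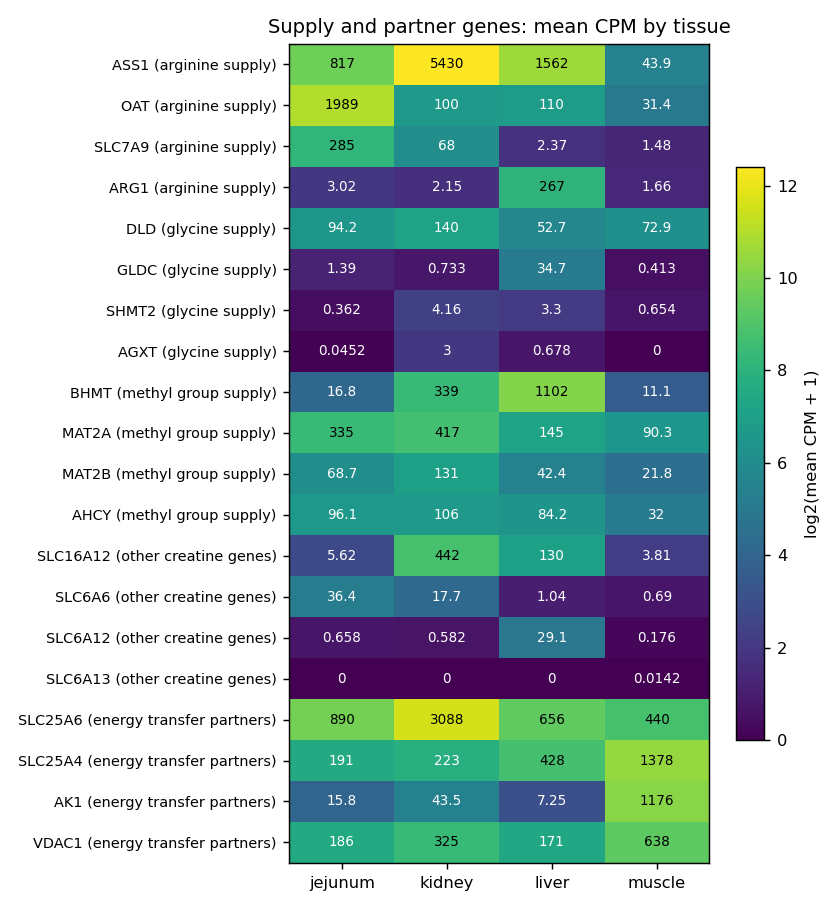
Mean CPM (numbers) and log2(mean CPM + 1) (colour) by tissue for the 4 highest genes of each list of arginine supply, glycine supply, methyl group supply, other creatine genes and energy transfer partners. ASS1 and SLC16A12 are highest in kidney, BHMT and ARG1 in liver, OAT in jejunum, and SLC25A4 and AK1 in muscle.

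The genes whose tissue profile was most like each creatine gene were sought among 8399 genes with a symbol and 10 CPM or more in some tissue, by the root mean square difference of centred log2(mean CPM + 1) over the 4 tissues. For GATM they included QPRT (0.162) and CYP2A19 (0.228). QPRT, an enzyme of NAD synthesis, was at 144 CPM in kidney, 118 CPM in liver, 2.97 CPM in jejunum and 1.85 CPM in muscle. For SLC6A8 they were SLC30A4 (0.119), PFKP (0.142) and BAIAP2L2 (0.157), with PFKP, a phosphofructokinase subunit, at 87.8 CPM in jejunum and 4.74 CPM in muscle.

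For CKM the nearest were PYGM (0.0379), TNNT3 (0.0417) and NEB (0.0443), a glycogen phosphorylase and 2 sarcomere proteins of skeletal muscle. PYGM was at 4070 CPM in muscle and 29.9 CPM in kidney. For CKMT2 they were ADORA1 (0.0633), KLHL31 (0.0866) and ADSS1 (0.108), with ADSS1, an enzyme of the purine nucleotide cycle in muscle, at 648 CPM in muscle and 9.78 CPM in kidney. For CKB they were TMEM176B (0.0778), ELOVL7 (0.0896) and CRACR2B (0.185), with ELOVL7, a fatty acid elongase, at 122 CPM in kidney, 99.4 CPM in jejunum and 4.64 CPM in muscle. With 4 tissues these profiles are short, and the likeness is a description of tissue means.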

How the data were processed

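The authors deposited 1 file of raw counts for each library, made from QuantSeq 3' libraries, per the labels' protocols. The submitters' processing notes name STAR and featureCounts, with no version or role, and the file names carry HTSeq's name. The genome build, annotation and strand setting were not stated in the sources used here. Of the 25880 identifiers, 14857 had a symbol in the name table. A 3' method misses a gene whose 3' end lies outside its annotated model, and paralogous, overlapping or antisense genes may share counts. Reads were counted without molecular identifiers as far as described, and floors (3 counts) cover counting error only. Nothing says which libraries come from separate animals, so p-values measure the spread between these libraries.

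Libraries under 1000000 counts were left out. Tissue pairs were tested in 1 fit over the 8 groups, and diet within each tissue, with edgeR 4.0.16 in R 4.3.3 (quasi-likelihood F test, TMM scaling, filterByExpr, lane as a term, Benjamini-Hochberg over all genes tested). Errors of fold changes are SE. CPM used the total of all genes. Relations used log2(TMM-scaled CPM + 1) and 100000 permutations, two-sided. The steps were tested on simulated data. The tissue check scored each library on marker lists.

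Named were the 6 genes, the 4 highest genes of each pathway list, the 3 genes of most alike profile and the 3 highest markers of a list used; other names were chosen after their values were seen, and 1 gene that the rule names is not reported here. Members and lists were chosen with earlier results of these data known. The 100 CPM minimum for markers in percentages was set after the data were seen. Alternatives were other size factors, library totals alone, no filter on low counts, DESeq2 1.42.0, no lane term, each lane alone, small libraries kept, the recorded assignment and a replicate block; fits without libraries that stand apart were added after the data were seen.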

Additional observations from a re-analysis of the deposited data

Results flagged for a closer look

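CKM in the 10 jejunum xylose libraries had 1 library, replicate 3, at 221 CPM that lay far from the others, its gap being 0.712 of the whole range. The same library had the highest summed level of skeletal muscle markers in jejunum, 9589 CPM against a median of 2863 CPM, and the part of these transcripts in its CKM level was not tested. Only the jejunum groups were small enough for this check, with 10 combinations of gene and group, and chance flags about 5% of them.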

How the results depend on the processing

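Without libraries' scaling factors (library totals alone) 6 differences between tissues turned: for jejunum over kidney CKB was -0.18 and CKMT2 -0.056, for jejunum over muscle GATM was 0.99, for kidney over liver GATM was 0.13 and CKM 0.48, and for liver over muscle CKB was 0.23. That scaling moved the median log2 fold change of all genes to between -0.26 and 1.57, from between -0.0035 and 0.16, and the share of calls that were higher in the first tissue from 50.0% to 39.1% (jejunum, kidney), 53.8% to 72.4% (jejunum, liver), 53.8% to 78.2% (jejunum, muscle), 57.0% to 86.7% (kidney, liver), 56.8% to 89.5% (kidney, muscle) and 51.4% to 69.5% (liver, muscle). Mean levels with TMM factors moved for SLC6A8 to 24.1 CPM in kidney and 14.8 CPM in muscle, for CKM to 11720 CPM in muscle, and for CKMT2 to 6.26 CPM in kidney and 1132 CPM in muscle.

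Under the recorded assignment the mean levels of jejunum and liver change places. For jejunum over kidney GATM was 0.72, SLC6A8 -1.75, CKB -3.50 and CKMT2 -0.060. For jejunum over liver GATM was 5.48, SLC6A8 -3.64, CKM -0.41, CKB -3.57 and CKMT2 -0.26. For jejunum over muscle GATM was 5.30, SLC6A8 -1.03 and CKB -0.30. For kidney over liver GATM was 4.76, SLC6A8 -1.89, CKB -0.068 and CKMT2 -0.20, and for liver over muscle GATM was -0.18, SLC6A8 2.61 and CKB 3.27. Mean levels in jejunum became 1151 CPM for GATM, 6.11 for SLC6A8 and 8.62 for CKB, and in liver 38.8 for GATM, 116 for SLC6A8, 78.4 for CKM, 154.5 for CKB and 9.71 for CKMT2. Diet calls became 1 in jejunum (TCAP), 2 in kidney (CRP and an identifier without symbol), 887 in liver and 281 in muscle, where diet and lane cannot be told apart. Diet effects that turned were CKM -0.18, CKB 0.34 and CKMT2 -0.28 in jejunum, GATM 0.22, CKM -0.25, CKB 0.29 and CKMT2 -0.037 in kidney, GATM -0.034 and CKB 0.19 in liver, and SLC6A8 0.42 and CKMT2 -0.039 in muscle.

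With small libraries kept, mean levels became 54.5 CPM for GATM and 121 CPM for CKM in jejunum and 59.0 CPM for CKM in liver, and the diet effects in jejunum became -0.026 for GATM and 0.016 for CKB. In lane 7 alone CKB was -0.0082 for jejunum over kidney, GATM 0.16 for jejunum over muscle and CKMT2 -0.075 for kidney over liver, and the diet effect on CKB in muscle was -0.50. In lane 8 alone the diet effects were 0.096 for SLC6A8, -0.050 for CKM and 0.20 for CKB in jejunum, 0.24 for CKMT2 in liver, and 0.21 for SLC6A8 and -0.17 for CKMT2 in muscle. SLC6A8 in muscle was near 0 and turned also with size factors by relative log expression (0.012), library totals (0.036), DESeq2 (0.022) and no lane term (0.024), as did GATM in jejunum with library totals (-0.021). None of these diet effects passed in any fit named so far.

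DESeq2 called 2 genes for diet in muscle. Without muscle xylose replicate 7 edgeR called 1, CNN1, a smooth muscle gene. Without jejunum xylose replicate 3 the diet effects in jejunum were -0.043 for GATM, 0.022 for SLC6A8, -0.054 for CKM and -0.097 for CKMT2. Without the 3 libraries that stand apart GATM was 0.073 for jejunum over muscle. With a replicate block 1 gene was called for diet in kidney (SAL1), and the diet effects were 0.15 for SLC6A8 and -0.24 for CKMT2 in jejunum, 0.063 for CKM and 0.13 for CKMT2 in liver, and 0.0022 for SLC6A8 and -0.030 for CKB in muscle. The labels give no replicate numbers; those used here follow accession order, and by the titles the same number within a diet has the same plate column and block of rows in all 4 tissues. Deviations of such libraries from their group means had a median correlation of 0.078 over 126 pairs, 52 of them over 0.1, against -0.0092 for other positions, and whether a position marks an animal is not stated. Deviations of same-numbered control and xylose libraries had a median correlation of 0.047, with 15 of 43 over 0.1. The cause of the other changes was not tested. GAMT has no counts and depth cannot show it below its floor, and for the lowest levels, such as CKB in muscle, counting error adds to the spread.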
